A study of Mus musculus with 12 samples.

Results

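The 9 genes Plau, Plat, Plaur, Serpine2, Tfpi, Tfpi2, F3, Thbd and F2r encode regulators of plasminogen activation and of coagulation. They were selected by gene symbol, and each symbol matched 1 of the 35275 genes in the RNA-Seq count table. All 9 passed the filter on low counts, which left 15150 genes for testing.

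RNA-Seq was performed on passage 2 cardiac fibroblasts of 12-week-old C57BL/6 mice whose Smad7 gene is floxed, in 12 libraries from 4 conditions with 3 libraries each. Smad7-KO cells were infected for 48 hours at an MOI of 100 with an adenovirus that expresses Cre, and control cells received a control adenovirus, described as expressing GFP in the labels and as empty in the study's methods. TGF-β1 was added at 10 ng/ml, for 2 hours in one field of the labels and for 4 hours in another. Control and Smad7-KO cells were each studied unstimulated and with TGF-β1. All 4 conditions carry the floxed Smad7 gene and an adenovirus, although the titles call the control cells Wild Type. Each Smad7-KO library received Cre, so that Cre expression and loss of Smad7 cannot be told apart, and the promoter that drives Cre is not given in the sources used here. The labels do not say whether the 3 libraries of a condition came from separate animals or cultures, and p values therefore measure only the spread between these libraries, which may be technical.

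Counts per library totalled 19056916 to 25371321, and 3 libraries against 3 cannot give a 2-sided exact p under 0.1. Smad7, the targeted gene, was at 71.4 to 77.2 CPM (read counts scaled by library size and TMM) in unstimulated control libraries and at 28.4 to 31.1 CPM in unstimulated Smad7-KO libraries. With TGF-β1 it was at 142 to 150 CPM in control and at 70.0 to 80.8 CPM in Smad7-KO libraries, so that reads on Smad7 remained in every Smad7-KO library. Unstimulated control library 2 stood apart, with correlations of log2 CPM of 0.935 and 0.967 to the other libraries of its condition, against 0.984 or more in the other 3 conditions. The value of 0.935 was that with library 3, whose correlation with library 1 was 0.981. Fibroblast markers (11 genes) summed to 10694 to 14334 CPM per library. Macrophage markers (12 genes) summed to 16755 to 26326 CPM per library, above the fibroblast list in every condition. Of these, Lyz2 alone was at 8677 to 15719 CPM. The order of the 2 sums depends on this gene and is not read as an order of cell types. Endothelial markers (13 genes) summed to 297 to 365 CPM in control and to 26.3 to 30.3 CPM in Smad7-KO libraries. None of the genes on these 3 lists was at 0 in all libraries. In bulk RNA, fewer cells of a type and less RNA per cell cannot be told apart.

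Plasminogen is a circulating proenzyme that urokinase (Plau) and tissue plasminogen activator (Plat) cut to plasmin, the protease that dissolves fibrin and also acts on matrix proteins and latent growth factors. Coagulation starts when tissue factor (F3) binds factor VIIa at the cell surface, and it ends in thrombin, which cleaves fibrinogen and signals to cells through protease-activated receptors such as F2r. Tfpi, thrombomodulin (Thbd) and the serpin Serpine2 restrain these proteases.

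The promoters of F2r and F3, which TGF-β1 raised in control cells, are shown with those of Plaur and Serpine2, because TGF-β1 signals through Smad proteins, whose short binding element is CAGAC, and can also act through AP-1. Each run holds the 250 bases before the RefSeq start on GRCm38.p6, read 5′ to 3′ on the strand of the gene. The windows are chr13:95618467-95618716 (minus strand) for F2r, chr3:121723287-121723536 (plus strand) for F3, chr7:24462233-24462482 (plus strand) for Plaur and chr1:79858666-79858915 (minus strand) for Serpine2. The Serpine2 window lies inside the span of the gene in the deposited table, which begins upstream of the RefSeq start. Capitals mark the AP-1 site TGANTCA and the Smad-binding element core CAGAC, which reads GTCTG on the other strand.
F2r: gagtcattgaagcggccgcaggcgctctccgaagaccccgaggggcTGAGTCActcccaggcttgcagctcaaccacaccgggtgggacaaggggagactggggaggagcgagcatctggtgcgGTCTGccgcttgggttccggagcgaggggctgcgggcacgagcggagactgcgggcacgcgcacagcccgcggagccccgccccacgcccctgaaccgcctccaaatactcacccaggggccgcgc
F3: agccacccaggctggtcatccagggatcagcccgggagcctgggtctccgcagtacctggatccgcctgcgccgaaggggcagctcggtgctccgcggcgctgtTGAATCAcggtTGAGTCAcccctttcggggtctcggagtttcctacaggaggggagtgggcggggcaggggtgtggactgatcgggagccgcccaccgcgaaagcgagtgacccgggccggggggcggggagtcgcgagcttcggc
Plaur: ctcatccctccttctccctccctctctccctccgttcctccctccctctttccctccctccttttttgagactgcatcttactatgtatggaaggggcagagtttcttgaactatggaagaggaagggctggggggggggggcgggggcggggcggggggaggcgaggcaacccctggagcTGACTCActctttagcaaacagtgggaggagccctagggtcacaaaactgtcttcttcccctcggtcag
Serpine2: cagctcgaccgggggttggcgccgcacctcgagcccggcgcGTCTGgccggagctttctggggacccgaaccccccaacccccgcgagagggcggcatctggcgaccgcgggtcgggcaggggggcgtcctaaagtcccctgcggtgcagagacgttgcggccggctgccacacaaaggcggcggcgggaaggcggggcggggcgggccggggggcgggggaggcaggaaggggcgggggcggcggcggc

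The AP-1 letters were found at 146 and 135 bases before the start of F3, at 204 bases before that of F2r and at 69 bases before that of Plaur, and not in the Serpine2 window. Promoters were found for 6 members at 9 RefSeq starts, and 4 of the 9 windows, those of F3, F2r and Plaur and 1 of Tfpi2, held the AP-1 letters, 77 bases before 1 of the 3 starts of Tfpi2. Of all 32851 mouse promoters searched over the same length, 6.75% held TGANTCA. The Smad-binding element core was found in 4 of the 9 windows, 126 bases before the start of F2r and 209 bases before that of Serpine2 among them, and in 42.2% of all promoters. The GC box GGGCGG was found in 7 of the 9 windows and in 32.7% of all promoters. The TATA box letters TATAAA were found 127 bases before 1 start of Tfpi and in 12.4% of all promoters. The 9 windows are not independent, since the Tfpi2 windows chr6:3988859-3989108 and chr6:3988937-3989186 overlap. By gene, the AP-1 letters, the Smad-binding element core and the GC box were found in 4, 4 and 6 of the 6 members. A gene was counted here with a match at any of its starts, so these counts do not compare with the shares per promoter. All motifs were searched on both strands, and the letters of none contain those of another. A match describes the letters only, and promoters of Plau, Plat and Thbd are not shown.

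In control fibroblasts, TGF-β1 raised F2r and F3. Of the 9 members 2 passed the test, both higher. The test was the quasi-likelihood test of edgeR at an adjusted p up to 0.05, which 8.37% of all genes tested passed. In Smad7-KO fibroblasts, TGF-β1 raised F2r and lowered Thbd and Plat, so that 3 of 9 passed against 10.2% of all genes. In unstimulated cells, Smad7-KO lowered Serpine2, Tfpi, Thbd and F2r and raised F3. These are 5 of 9, against 25.8% of all genes. In TGF-β1-stimulated cells, Smad7-KO lowered Tfpi, Thbd and F2r, which are 3 of 9 against 13% of all genes. In edgeR fitted to only the libraries of the comparison, F2r and F3 lost the call for TGF-β1 in control cells (adjusted p = 0.107 and 0.120), and Serpine2, Tfpi, Thbd and F3 lost it for Smad7-KO in unstimulated cells (0.110, 0.140, 0.0861 and 0.114). The same fits called 4 of 9 for TGF-β1 in Smad7-KO cells, with Plaur added, and 4 of 9 for Smad7-KO under TGF-β1, with Plat added. Over all genes they called 391 of 14553 for TGF-β1 in control and 3792 of 14401 in Smad7-KO cells. For Smad7-KO they called 660 of 14524 in unstimulated cells and 4453 of 14481 under TGF-β1. Calls of members and of all genes thus fell and rose together. The median log2 fold change over the members was 0.01, 0.11, -0.12 and -0.28 in these 4 comparisons, in the same order, and that over all genes was -0.03, -0.01, -0.02 and -0.02.

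**Figure D1:**
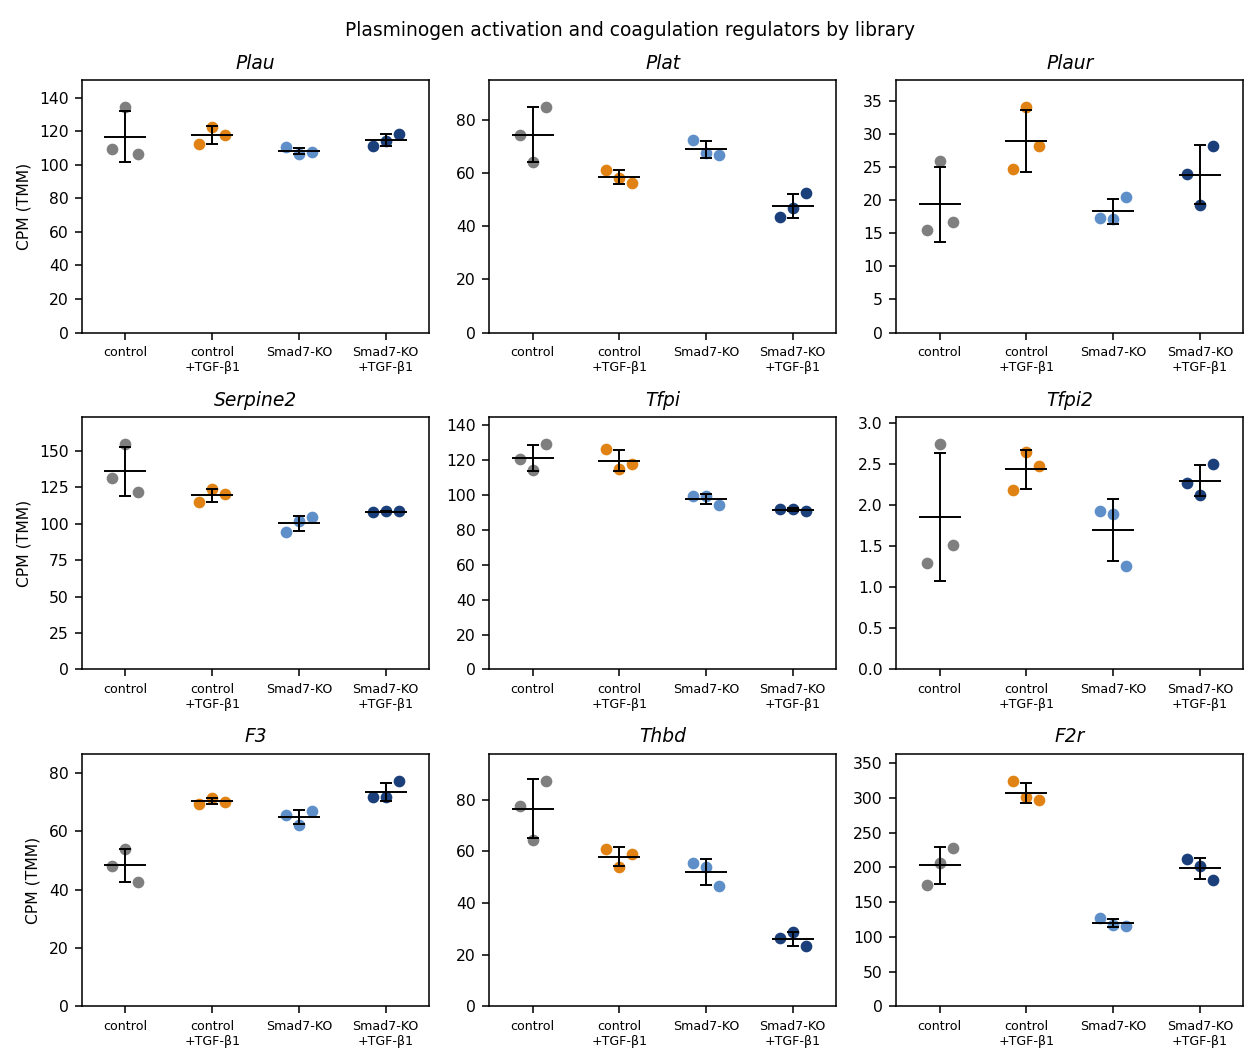
CPM (TMM-scaled, linear axis from 0) of the 9 genes in the 12 libraries by condition, with 1 point per library, a line for the mean and a bar for ± 1 SD (n = 3). F2r was higher with TGF-β1 in both control and Smad7-KO cells and lower in Smad7-KO cells with and without TGF-β1, whereas Thbd was lowest in TGF-β1 Smad7-KO cells, at 23.5 to 28.9 CPM.

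The activators and their receptor were examined first. Gene positions are those of the deposited table, read as GRCm38, and span the whole gene. Plau (ENSMUSG00000021822, chr14:20836662-20843388) encodes urokinase, which activates plasminogen at the cell surface. It was at 109, 134 and 107 CPM in unstimulated control cells, at 112, 123 and 118 CPM with TGF-β1, at 110, 107 and 107 CPM in unstimulated Smad7-KO cells and at 111, 114 and 118 CPM in Smad7-KO libraries with TGF-β1. The 4 conditions lay close together, and unstimulated control library 2 had the highest value of all 12. The log2 fold change was 0.01 ± 0.101 (SE) for TGF-β1 in control cells (adjusted p = 0.970) and -0.11 ± 0.101 for Smad7-KO in unstimulated cells (adjusted p = 0.413). It was 0.08 for TGF-β1 in Smad7-KO cells and -0.04 for Smad7-KO under TGF-β1, and neither passed.

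Plat (ENSMUSG00000031538, chr8:22757744-22782847) encodes tissue plasminogen activator, which activates plasminogen mainly on fibrin. It was at 74.5, 64.2 and 84.8 CPM in unstimulated control cells, at 61.2, 58.2 and 56.3 CPM with TGF-β1, at 72.6, 67.6 and 66.8 CPM in unstimulated Smad7-KO cells and at 43.6, 46.8 and 52.5 CPM in Smad7-KO libraries with TGF-β1. The stimulated libraries lay below the unstimulated ones of the same genotype with no overlap. In Smad7-KO cells Plat fell by 0.53 on the log2 scale (SE 0.116, adjusted p = 0.0110), a level 31.0% lower. This call was lost without TGF-β1 Smad7-KO library 1 (adjusted p = 0.0677) or 2 (0.0534) and without unstimulated Smad7-KO library 1 (0.0574). In control cells the log2 fold change was -0.35 ± 0.116 (adjusted p = 0.0973), and it was -0.45 with an adjusted p of 0.0117 without unstimulated control library 2. For Smad7-KO the log2 fold change was -0.11 ± 0.115 (adjusted p = 0.468) in unstimulated cells and -0.30 ± 0.116 (adjusted p = 0.114) under TGF-β1. The latter comparison reached an adjusted p of 0.0370 with DESeq2 and 0.0402 with edgeR fitted to only its own libraries, and of 0.0351 and 0.0469 in fits without unstimulated control library 2 and 3, which are not part of it.

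Plaur (ENSMUSG00000046223, chr7:24462500-24475873) encodes the receptor that holds urokinase at the cell surface. It was at 15.5, 25.8 and 16.7 CPM in unstimulated control cells, at 24.7, 34.0 and 28.2 CPM with TGF-β1, at 17.2, 17.1 and 20.5 CPM in unstimulated Smad7-KO cells and at 23.9, 19.3 and 28.2 CPM in Smad7-KO libraries with TGF-β1. Unstimulated control library 2 lay inside the range of the TGF-β1 control libraries, and the other 2 lay below it. The log2 fold change for TGF-β1 in control cells was 0.59 ± 0.209 (adjusted p = 0.126). Without unstimulated control library 2 it was 0.85 ± 0.173 (adjusted p = 0.00683). In Smad7-KO cells it was 0.38 ± 0.209 (adjusted p = 0.367), and it passed with DESeq2 and edgeR fitted to only the libraries of that comparison (adjusted p = 0.0321 and 0.0367). For Smad7-KO it was -0.08 in unstimulated cells and -0.28 under TGF-β1 (adjusted p = 0.794 and 0.381), and the first of these was 0.19 without unstimulated control library 2 (adjusted p = 0.458).

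The inhibitors included 1 serpin and 2 Kunitz-type inhibitors. Serpine2 (ENSMUSG00000026249, chr1:79794197-79861180), or protease nexin 1, inhibits thrombin, urokinase and plasmin. It was at 131, 154 and 122 CPM in unstimulated control cells, at 115, 123 and 121 CPM with TGF-β1, at 94.4, 102 and 104 CPM in unstimulated Smad7-KO cells and at 108 CPM in all 3 Smad7-KO libraries with TGF-β1. Each Smad7-KO library lay below each control library with the same stimulation. Smad7-KO lowered Serpine2 in unstimulated cells by 26.2% (log2 fold change -0.44 ± 0.101, adjusted p = 0.0118). The value was -0.33 (adjusted p = 0.0121) without unstimulated control library 2, and the call was lost without unstimulated Smad7-KO library 1 (adjusted p = 0.0576). Under TGF-β1 the log2 fold change was -0.14 (SE 0.10, adjusted p = 0.357). TGF-β1 gave -0.18 (SE 0.10) in control cells and 0.11 ± 0.101 in Smad7-KO cells, and neither passed (adjusted p = 0.350 and 0.674). Without unstimulated control library 2 the former was -0.0822.

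Tfpi (ENSMUSG00000027082, chr2:84432855-84476775) encodes tissue factor pathway inhibitor, which blocks the complex of tissue factor with factor VIIa and factor Xa. It was at 120, 114 and 129 CPM in unstimulated control cells, at 126, 115 and 118 CPM with TGF-β1, at 99.4, 99.4 and 94.4 CPM in unstimulated Smad7-KO cells and at 91.9, 91.8 and 90.6 CPM in Smad7-KO libraries with TGF-β1. All 6 Smad7-KO libraries lay below all 6 control libraries. Smad7-KO lowered Tfpi by 19.3% in unstimulated cells (log2 fold change -0.31 ± 0.0858, adjusted p = 0.0258) and by 23.5% under TGF-β1 (-0.39 ± 0.0858, adjusted p = 0.0131). Both values lay near the threshold. The first was lost when unstimulated control library 1 (adjusted p = 0.0666) or any 1 of the unstimulated Smad7-KO libraries (0.0761, 0.0787 and 0.0995) was left out. The second was lost when TGF-β1 control library 1 (0.0536) or any 1 of the TGF-β1 Smad7-KO libraries (0.0568, 0.0583 and 0.0524) was left out. TGF-β1 gave a log2 fold change of -0.02 ± 0.0856 in control and -0.10 ± 0.0858 in Smad7-KO cells (adjusted p = 0.927 and 0.670).

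Tfpi2 (ENSMUSG00000029664, chr6:3962589-3974650 in the deposited table, and to 3988919 in GENCODE M21) encodes a secreted inhibitor of plasmin and other serine proteases. It had the fewest reads of the 9 and was at 1.30, 2.74 and 1.52 CPM in unstimulated control cells, at 2.18, 2.64 and 2.48 CPM with TGF-β1, at 1.93, 1.89 and 1.26 CPM in unstimulated Smad7-KO cells and at 2.27, 2.13 and 2.50 CPM in Smad7-KO libraries with TGF-β1. These values rest on 29 to 65 counts per library. The log2 fold change for TGF-β1 was 0.41 ± 0.283 in control and 0.44 ± 0.284 in Smad7-KO cells (adjusted p = 0.468 and 0.471). The former was 0.21 without unstimulated control library 1 and 0.78 without library 2, which held the highest value, and did not pass in either fit (adjusted p = 0.749 and 0.0657). For Smad7-KO it was -0.12 ± 0.290 and -0.08 ± 0.277 (adjusted p = 0.776 and 0.863).

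F3 (ENSMUSG00000028128, chr3:121723537-121735052) encodes tissue factor, the membrane protein that starts coagulation. It was at 48.2, 54.1 and 42.8 CPM in unstimulated control cells, at 69.5, 71.6 and 70.3 CPM with TGF-β1, at 65.8, 62.4 and 67.1 CPM in unstimulated Smad7-KO cells and at 71.6, 71.7 and 77.2 CPM in Smad7-KO libraries with TGF-β1. The unstimulated control libraries lay below the other 9 libraries. TGF-β1 raised F3 by 45.7% in control cells (log2 fold change 0.54 ± 0.0996, adjusted p = 0.00464), and in Smad7-KO cells the log2 fold change was 0.18 ± 0.0991 (adjusted p = 0.385). Smad7-KO raised F3 by 34.6% in unstimulated cells (0.43 ± 0.0995, adjusted p = 0.0124), and under TGF-β1 the log2 fold change was 0.06 ± 0.0990 (adjusted p = 0.700). With a trend of the counts on gene length removed from each library the latter was 0.23 and passed (adjusted p = 0.0225). The Smad7-KO call was lost without unstimulated Smad7-KO library 3 (adjusted p = 0.0538). Without unstimulated control library 2 the values were 0.52 (adjusted p = 0.00150) for Smad7-KO and 0.63 (adjusted p = 0.000391) for TGF-β1. The interaction, which tests whether the TGF-β1 effect differed between genotypes, was -0.37 ± 0.140 for F3, with an unadjusted p of 0.0230 and an adjusted p of 0.980.

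Thbd (ENSMUSG00000074743, chr2:148404466-148408188) encodes thrombomodulin, which binds thrombin and turns it toward activation of the anticoagulant protein C. It was at 77.7, 64.4 and 87.2 CPM in unstimulated control cells, at 60.9, 53.8 and 59.1 CPM with TGF-β1, at 55.7, 54.1 and 46.5 CPM in unstimulated Smad7-KO cells and at 26.3, 28.9 and 23.5 CPM in Smad7-KO libraries with TGF-β1. No library of TGF-β1 Smad7-KO cells overlapped with any other condition. Smad7-KO lowered Thbd by 31.9% in unstimulated cells (log2 fold change -0.55 ± 0.130, adjusted p = 0.0131) and by 54.7% under TGF-β1 (-1.14 ± 0.132, adjusted p = 0.000397). The first call was lost without unstimulated Smad7-KO library 3 (adjusted p = 0.0650), and without unstimulated control library 2 its value was -0.66 (adjusted p = 0.00203). The second passed whichever library of the comparison was left out, with adjusted p between 0.00152 and 0.00418.

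TGF-β1 lowered Thbd by 49.6% in Smad7-KO cells (log2 fold change -0.99 ± 0.132, adjusted p = 0.000471). In control cells the log2 fold change was -0.40 ± 0.130 (adjusted p = 0.0886), and without unstimulated control library 2 it was -0.51 with an adjusted p of 0.0116. The interaction for Thbd was -0.59 ± 0.184, with an unadjusted p of 0.00817 and an adjusted p of 0.980. The TGF-β1 effect was thus not shown to differ between genotypes over all genes tested.

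F2r (ENSMUSG00000048376, chr13:95601804-95618459) encodes PAR1, a thrombin receptor of fibroblasts and many other cells. It was at 174, 207 and 228 CPM in unstimulated control cells, at 324, 302 and 297 CPM with TGF-β1, at 127, 117 and 115 CPM in unstimulated Smad7-KO cells and at 212, 202 and 182 CPM in Smad7-KO libraries with TGF-β1. The TGF-β1 control libraries were the highest and the unstimulated Smad7-KO libraries the lowest, and the other 2 conditions overlapped in between. TGF-β1 raised F2r by 51.6% in control cells (log2 fold change 0.60 ± 0.112, adjusted p = 0.00516) and by 65.7% in Smad7-KO cells (0.73 ± 0.112, adjusted p = 0.00120). Smad7-KO lowered it by 41.0% in unstimulated cells (-0.76 ± 0.112, adjusted p = 0.00124) and by 35.5% under TGF-β1 (-0.63 ± 0.112, adjusted p = 0.00413). All 4 calls passed whichever library of the comparison was left out, with adjusted p of at most 0.0276. Without unstimulated control library 2 the values were 0.61 (adjusted p = 0.00461) for TGF-β1 and -0.74 (adjusted p = 0.00105) for Smad7-KO.

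**Figure D2:**
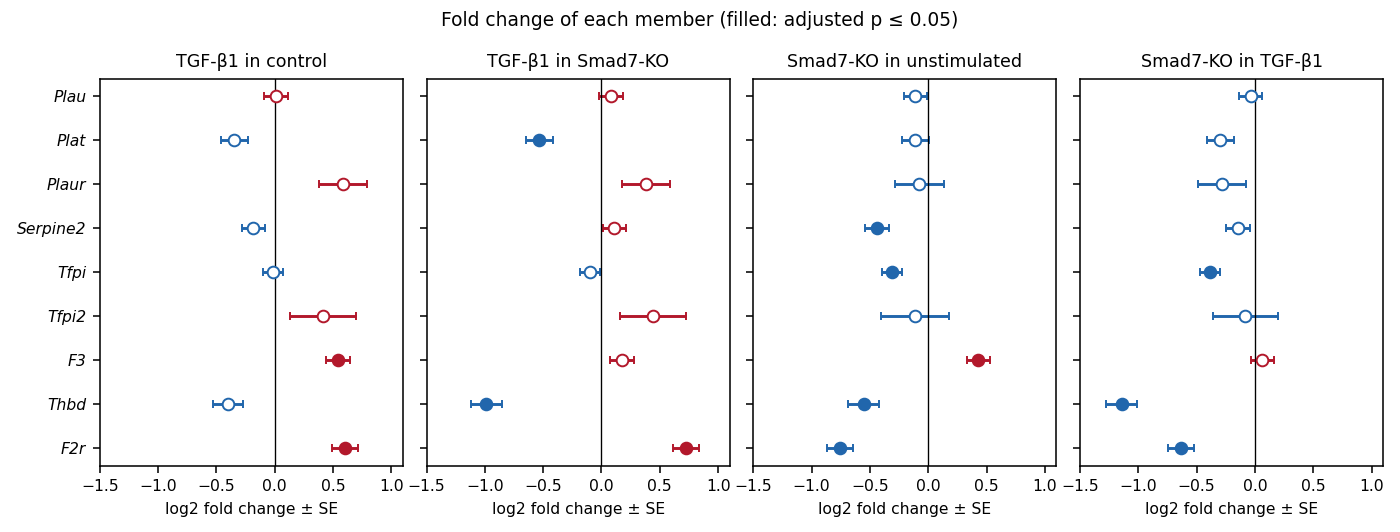
Log2 fold change of the 9 genes in each of 4 comparisons, with bars for ± 1 SE from edgeR's quasi-likelihood model of the 12 libraries and filled points for an adjusted p up to 0.05. Red marks higher and blue lower values, and the points farthest from 0 are those of Thbd in Smad7-KO cells, at -0.99 with TGF-β1 and at -1.14 for Smad7-KO under TGF-β1.

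For the interaction 0 of the 9 members passed in edgeR, against 0.0198% of all genes, and 2, Thbd and F3, had an unadjusted p under 0.05. DESeq2 and limma also called 0, with 3 and 2 members at an unadjusted p under 0.05. Libraries did not overlap for 4, 8, 5 and 6 of 9 members in the comparisons of TGF-β1 in control, TGF-β1 in Smad7-KO, Smad7-KO in unstimulated and Smad7-KO under TGF-β1, against 19.8%, 39%, 41.3% and 44.9% of all genes. The 2 TGF-β1 comparisons share no library with each other, whereas each of them shares libraries with both Smad7-KO comparisons.

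Values of other cell types moved with the Smad7-KO results. In either direction 25.8% and 13% of all genes passed in the unstimulated and the TGF-β1-stimulated Smad7-KO comparison. Of the endothelial markers 10 of the 12 tested were lower in Smad7-KO cells in both comparisons, and none was higher. Their summed level was 297 to 353 CPM in unstimulated control and 312 to 365 CPM in TGF-β1 control libraries, against 26.3 to 29.1 and 30.0 to 30.3 CPM in the corresponding Smad7-KO libraries. Cdh5, the cadherin of endothelial junctions, was at 23.1 to 42.4 CPM in unstimulated control and at 2.53 to 3.38 CPM in unstimulated Smad7-KO libraries. Thbd, Tfpi and F2r, which are known in endothelium as well as in other cells, moved in the same direction as this list in both Smad7-KO comparisons. Serpine2 shared the direction in both and passed the test in the unstimulated one. Of all 9 members 8 had a negative log2 fold change in each Smad7-KO comparison, so that the direction does not single out these genes. Among the 8, Plat was at -0.11 and -0.30 and did not pass. The part of endothelial RNA in these results was not tested. The ranges with and without TGF-β1 overlapped in control and did not overlap in Smad7-KO libraries. The TGF-β1 results for F2r, F3, Thbd and Plat compare libraries of the same genotype. The part of other cell types in these TGF-β1 results was not tested either. Of the 12 macrophage markers 7 were higher in unstimulated Smad7-KO cells and 6 under TGF-β1, against 25.8% and 13% of all genes. Their summed level was 16836 to 26312 CPM in unstimulated control and 23967 to 26326 CPM in unstimulated Smad7-KO libraries, and 16755 to 19398 and 23255 to 26152 CPM in the TGF-β1-stimulated ones. F3, a gene that macrophages also express, was higher in unstimulated Smad7-KO cells, and the part of macrophage RNA in this was not tested. Of the 11 fibroblast markers 2 were higher and 3 lower in each Smad7-KO comparison, against the same shares of all genes. Their summed level was 12023 to 14334 CPM in unstimulated control and 11588 to 12296 CPM in unstimulated Smad7-KO libraries, which overlapped. With TGF-β1 it was 12508 to 12754 CPM in control and 10694 to 10806 CPM in Smad7-KO libraries, with no overlap. Markers of 3 other cell types had lower sums in Smad7-KO libraries, with no overlap at either stimulation. Smooth muscle and pericyte markers (7 genes) summed to 21.0 to 23.3 CPM in unstimulated control and to 10.6 to 14.7 CPM in unstimulated Smad7-KO libraries, and with TGF-β1 to 28.7 to 29.9 and 15.5 to 18.1 CPM. Mesothelial markers (5 genes) summed to 178 to 210.5 and 137 to 167 CPM without and to 190.5 to 199.8 and 131 to 143 CPM with TGF-β1, again in control and then in Smad7-KO libraries. Cardiomyocyte markers (6 genes) summed to 36.1 to 79.9 and 19.1 to 24.8 CPM without and to 30.0 to 33.3 and 19.8 to 22.4 CPM with TGF-β1. In unstimulated control cells Upk3b held a mean of 158 of 196 CPM of the mesothelial sum. Tnnt2 held 45.8 of 53.1 CPM of the cardiomyocyte sum. Not every gene was lower in Smad7-KO cells. The mean of Lrrn4 went from 22.3 to 28.7 CPM in unstimulated cells and that of Ttn from 1.19 to 2.47 CPM under TGF-β1. Of the genes tested, 2 of 5, 3 of 5 and 2 of 4 on these 3 lists were lower in unstimulated Smad7-KO cells, against 25.8% of all genes. Under TGF-β1 1, 1 and 0 were lower, against 13% of all genes, and 0 were higher in edgeR in either comparison. F2r, Thbd, Tfpi and Serpine2 shared the direction of these 3 sums, and the part of these cell types was not tested. Within each genotype the smooth muscle and pericyte sum was higher with TGF-β1, with no overlap. On this list 1 of 5 tested genes was called higher with TGF-β1 in each genotype and 0 lower, against 8.37% and 10.2% of all genes. F2r and F3 moved in this direction with TGF-β1, and Plat and Thbd in the other.

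Levels were compared between genes per kilobase, as FPKM. In unstimulated control cells F2r had the highest mean (61.0 ± 9.49 FPKM, SD, n = 3), followed by Plau (49.2 ± 2.93), Serpine2 (39.5 ± 2.17), Tfpi (30.4 ± 3.74), Plat (29.4 ± 5.83), F3 (25.5 ± 1.51), Thbd (20.5 ± 4.30), Plaur (13.6 ± 3.00) and Tfpi2 (1.19 ± 0.414). The libraries of F2r, Plau and Serpine2 did not overlap with those of the next gene, whereas Tfpi, Plat, F3, Thbd and Plaur each overlapped with their neighbour. In unstimulated Smad7-KO cells Plau came first at 46.6 ± 0.898 FPKM, ahead of F2r at 36.6 ± 1.95 and F3 at 35.0 ± 1.33, which overlapped. F2r was first again with TGF-β1, at 94.2 ± 4.90 FPKM in control and at 59.1 ± 4.64 FPKM in Smad7-KO cells, followed by Plau and F3 with no overlap between them. Thbd was at 6.93 ± 0.702 FPKM in TGF-β1 Smad7-KO cells, above only Tfpi2 at 1.49 ± 0.124 FPKM, with no overlap between these neighbours.

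**Figure D3:**
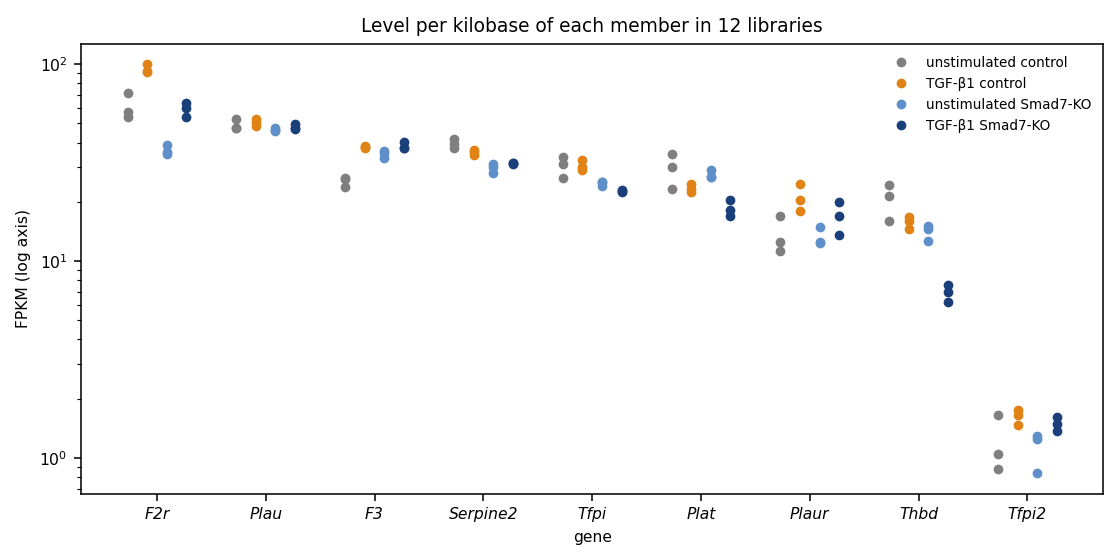
FPKM of the 9 genes on a log axis, with 1 point for each of the 12 libraries, colored by condition. F2r and Plau lie at the top, with F2r between 35.2 and 99.9 FPKM, and Tfpi2 at the bottom, between 0.836 and 1.76 FPKM.

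The other genes of the pathway were taken from 4 lists of 52 genes in all, covering the plasmin system (18), coagulation factors (19), anticoagulants (12) and protease-activated receptors (3). Of these 29 passed the filter on low counts, 12 had 3 counts or fewer in every library and 2 had none. TGF-β1 raised 1 and lowered 0 of the 29 in control cells, with 4 at an unadjusted p under 0.05 in edgeR, and DESeq2 and limma called 1 and 0 as well. In Smad7-KO cells it raised 1 and lowered 1, and with the replicate number as a block it raised 1 and lowered 0. Smad7-KO raised 4 and lowered 5 in unstimulated cells, and 4 and 4 under TGF-β1. The share of all genes called in these comparisons was 8.37%, 10.2%, 25.8% and 13%, and nothing particular to the lists is read from their counts. Without unstimulated control library 2 the 4 comparisons gave 1 higher and 0 lower, 3 and 1, 4 and 7, and 6 and 7. Leaving out each of the 12 libraries in turn gave 1 to 8, 0 to 4, 4 to 16 and 4 to 13 calls in either direction in these comparisons, and the 8 and the 16 came without unstimulated control library 3. The interaction called 0 of 29, and 0 had an unadjusted p under 0.05 in edgeR, DESeq2 or limma. The median log2 fold change over the 29 genes was 0.06, 0.0014, -0.13 and -0.18.

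In the plasmin list 4 of 11 tested genes passed for Smad7-KO in unstimulated cells and 2 under TGF-β1. Anxa2 and S100a10 form a receptor complex for plasminogen and its tissue activator, and both were lower in unstimulated Smad7-KO cells (-0.69 ± 0.187 and -1.10 ± 0.288, adjusted p = 0.0237 and 0.0212). Under TGF-β1 they were at -0.57 ± 0.187 and -0.72 ± 0.286 and did not pass (adjusted p = 0.0684 and 0.124). Plgrkt and Eno1, other plasminogen receptors, did not pass in unstimulated cells (adjusted p = 0.752 and 0.0787). In unstimulated control libraries S100a10 ranged from 153 to 411 CPM, and library 2 held the highest value. Without it Anxa2 was at -0.43 (adjusted p = 0.0355) and S100a10 at -0.63 (adjusted p = 0.0350). Both lost the call without any 1 of the 3 unstimulated Smad7-KO libraries, and Anxa2 also without unstimulated control library 1, with adjusted p of at most 0.0782. Serpinb2, a serpin that inhibits urokinase, was higher in Smad7-KO cells in both comparisons, from a mean of 0.812 to 2.12 CPM (log2 fold change 1.42 ± 0.373) and from 0.822 to 3.15 CPM (1.92 ± 0.361). A2m, a broad protease inhibitor, was lower in both (-1.76 ± 0.472 and -1.73 ± 0.444), on 8 to 57 counts per library. Leaving out any 1 of the 6 TGF-β1-stimulated libraries gave it an adjusted p of 0.0524 to 0.107 under TGF-β1. In unstimulated cells A2m and Serpinb2 lost the call when control library 1 (0.0578 and 0.0704) or Smad7-KO library 2 (0.0816 and 0.0642) or 3 (0.0807 and 0.0722) was left out, and A2m also when Smad7-KO library 1 was (0.0527). Vldlr, a receptor that clears protease and serpin complexes, was the gene lowered by TGF-β1 in Smad7-KO cells (-0.65 ± 0.187, adjusted p = 0.0480) and was named after its value was seen. Vldlr lost the call with the replicate number as a block (adjusted p = 0.0770), with limma (0.0808 and 0.0861) and without any 1 library of the comparison (0.0865 to 0.161), and without unstimulated control library 1 or any 1 of the TGF-β1 control libraries (0.0505 to 0.0665).

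Among the anticoagulants Procr, the endothelial receptor for protein C and a partner of thrombomodulin, was at 29.5 to 37.3 CPM in unstimulated control and at 9.46 to 10.2 CPM in unstimulated Smad7-KO libraries. Its log2 fold change was -1.77 in unstimulated cells (SE 0.140, adjusted p = 1.96e-05) and -1.73 under TGF-β1 (SE 0.140, adjusted p = 3.09e-05). Procr moved in the direction of the endothelial markers given above, and the part of endothelial RNA was not tested. Spint2, a membrane Kunitz inhibitor, was lower in Smad7-KO cells in both comparisons (-3.32 ± 0.346 and -3.38 ± 0.362), from 17.1 to 1.70 CPM on average in unstimulated cells. Spint1, the related inhibitor, was higher with TGF-β1 in control (1.52 ± 0.296) and in Smad7-KO cells (1.37 ± 0.317), on 10 to 101 counts per library. The latter call was lost without unstimulated Smad7-KO library 1 or 3 (adjusted p = 0.0744 and 0.0656) or TGF-β1 Smad7-KO library 3 (0.0736). Spint1 and Spint2 are on this list but are not read as anticoagulants. The same holds for Gas6, a ligand of the receptor Axl with a Gla domain like that of protein S. Gas6 was higher in Smad7-KO cells in both comparisons (0.43 ± 0.0949 and 0.52 ± 0.0949). The first call was lost in edgeR on the libraries of the comparison (adjusted p = 0.120). Pros1, which encodes protein S, was higher in Smad7-KO cells under TGF-β1 (0.28 ± 0.0801, adjusted p = 0.0407), from a mean of 112 to 136 CPM. Pros1 lost the call with the replicate number as a block (adjusted p = 0.0802) and without any 1 library other than those of unstimulated control, with adjusted p of 0.0701 to 0.150.

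Of the coagulation factors 9 of 19 were tested and TGF-β1 changed 0 in either genotype in edgeR, with 2 and 1 at an unadjusted p under 0.05, and DESeq2 and limma also called 0. Vwf, which carries factor VIII and binds platelets, was higher in Smad7-KO cells in both comparisons (1.03 ± 0.164 and 0.60 ± 0.163, adjusted p = 0.00194 and 0.0314), from a mean of 14.8 to 30.4 CPM in unstimulated cells. Vwf is made by endothelium in most tissues, and here it moved against the endothelial marker list. Its call under TGF-β1 was lost without TGF-β1 control library 2 or 3 (adjusted p = 0.130 and 0.0809), without unstimulated Smad7-KO library 3 (0.0527) and without TGF-β1 Smad7-KO library 1, 2 or 3 (0.110, 0.104 and 0.0536). It was also lost with limma at pseudocounts of 1 and 0.1 (0.0731 and 0.0872) and with the length trend removed, where the value was 0.36 (0.0510). F9 (1.51 ± 0.465, adjusted p = 0.0375) in unstimulated and F5 (-1.51 ± 0.403, adjusted p = 0.0301) in TGF-β1-stimulated cells passed for Smad7-KO on few reads, 3 to 29 and 5 to 33 counts per library. The F5 call was lost without any 1 library of its comparison, and the F9 call without any 1 of them except unstimulated control library 1, with adjusted p of at most 0.107. F9 was also lost without TGF-β1 Smad7-KO library 1, 2 or 3 (0.0513, 0.0520 and 0.0522), and F5 without unstimulated Smad7-KO library 2 (0.0505).

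**Figure D4:**
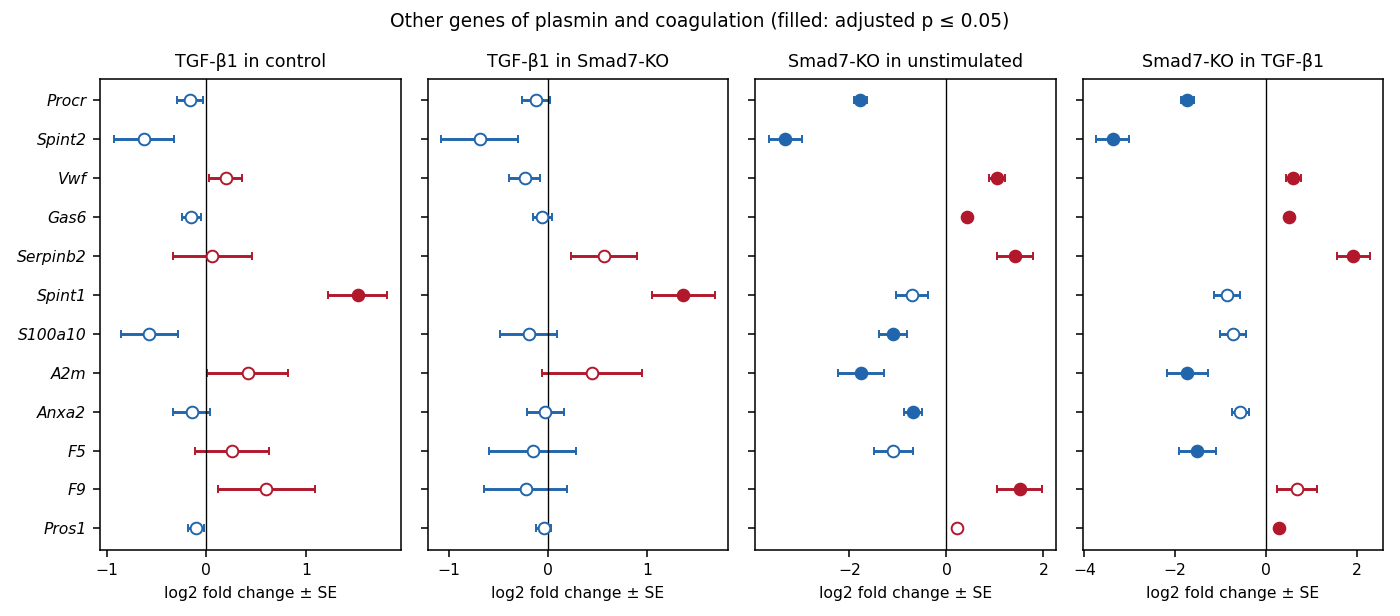
Log2 fold change of the 12 other pathway genes with the lowest adjusted p in 4 comparisons, with bars for ± 1 SE and filled points for an adjusted p up to 0.05 by edgeR, on a horizontal scale that differs between panels. Spint1 is the filled point with TGF-β1 in both genotypes, and Spint2 lies farthest to the left in both Smad7-KO comparisons, at -3.32 and -3.38.

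For the 4 members with the lowest adjusted p, the genes with the most similar pattern were found among 12179 tested genes by Pearson's r of log2 CPM over the 12 libraries, of which those of 1 condition are not independent points. These values are a description with no test. Thbd was most like Cyp26b1 (r = 0.978) and Nqo1 (r = 0.970). F2r was most like Plod2 (r = 0.982) and Pvrl3 (r = 0.980). F3 was most like Wwp2 (r = 0.913) and Syt8 (r = 0.902), and Plat most like Plscr4 (r = 0.971) and Mcc (r = 0.970).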

How the data were processed

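RNA-Seq was performed on 12 libraries of mouse cardiac fibroblasts, from poly-A RNA with NEBNext Ultra RNA libraries read as 100-bp paired ends. The authors deposited a count of reads for each gene as whole numbers with no scaling, beside FPKM. Per the labels, the submitters' processing notes name CASAVA, TopHat2 2.0, HTSeq 0.6.1, Cufflinks 2.1.1, mm10 and GRCm38.p6, with no roles. The strand setting is not given in the sources used here, but no other gene of GENCODE M21 overlapped a member. In all 35275 genes the deposited FPKM was the count over gene length and library total (relative tolerance 1e-06), with no other scaling. Every per-sample column had a sample. Totals ranged from 19056916 to 25371321 counts per library.

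The main test was the robust quasi-likelihood test of edgeR 4.0.16 (R 4.3.3), fitted to all 12 libraries with condition as the only term. The filter was filterByExpr at a minimum count of 10, which left 15150 genes, and scaling was by TMM. P values were adjusted by Benjamini-Hochberg over all genes tested, with a threshold of 0.05, and SEs come from the coefficient divided by the root of F. TGF-β1 was compared with no stimulation in each genotype and Smad7-KO with control in each stimulation, and the interaction compared both TGF-β1 effects. Alternatives were DESeq2 1.42.0 on all libraries or on those of the comparison, edgeR on those of the comparison, DESeq2 size factors, no filter, limma 3.58.1 on log2(FPKM + 1) and log2(FPKM + 0.1) with a filter of FPKM 1 in 3 libraries, the replicate number as a block, a loess correction for gene length in each library (span 0.3), and leaving out each library. In simulated counts for TGF-β1 in control cells (14891 genes), edgeR found 49% of 2-fold and 89% of 4-fold changes, and 2.13% of its calls were false. DESeq2 (15149 genes) found 61% and 94%, and 19.3% of its calls were false. The simulation gave each gene the same dispersion in all libraries, whereas the real spread differed between conditions. These rates therefore need not hold for the real data.

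The rule for named genes took all 9 members and Smad7, up to 12 other pathway genes past the threshold with the lowest adjusted p, and for the 4 members with the lowest adjusted p the 2 genes of most similar pattern among those with a mean log2 CPM of 1 or more. Members and lists were chosen with earlier results of these data known. A gene of the plasmin list is not reported here and was left out of the counts. Promoter sequences are those of RefSeq on GRCm38.p6, found for 6 of 9 members.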

Additional observations from a re-analysis of the deposited data

How the results depend on the processing

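Over the 9 members and 5 tests, 859 of the values under other settings kept their direction and their side of the threshold, 25 kept the direction and lost the call, 15 kept the direction and gained it, and 28 changed sign. None of the 28 passed the threshold in either fit. Of the 9 members, 2 passed for TGF-β1 in control cells, and 4 did with DESeq2 on all libraries (Plat and Thbd added), 5 with the length trend removed (Plaur added to these) and 0 with edgeR on the libraries of the comparison, where 4 had an unadjusted p under 0.05 and the adjusted p of F2r and F3 was 0.107 and 0.120. For Smad7-KO in unstimulated cells, 5 passed, and 2 did with DESeq2 and 1 with edgeR on the libraries of the comparison. Beyond counting noise, the coefficient of variation between libraries was 0.333 in unstimulated and 0.138 in TGF-β1 control cells. In Smad7-KO cells it was 0.0529 unstimulated and 0.0996 with TGF-β1. The main fit shares its estimate of spread between conditions, and the cause of the lost calls was not tested. Leaving out 1 library at a time gave 2 to 5 members for TGF-β1 in control, the 5 without unstimulated control library 2, and 2 to 5 for Smad7-KO in unstimulated cells, lowest without unstimulated Smad7-KO library 3. It gave 2 to 3 for TGF-β1 in Smad7-KO cells, 2 to 4 for Smad7-KO under TGF-β1 and 0 for the interaction. Without the filter on low counts, which tests more genes, Tfpi lost both calls (adjusted p = 0.120 and 0.0756). F2r for TGF-β1 in Smad7-KO cells and in both Smad7-KO comparisons and Thbd in Smad7-KO cells with TGF-β1 and for Smad7-KO under TGF-β1 passed under each setting.

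For TGF-β1 in control, Plau was at -0.00110 with DESeq2 and at -0.00464 with DESeq2 size factors, and Tfpi at 0.0105 and 0.0110 with limma at pseudocounts of 1 and 0.1. With the length trend removed, Plau, Tfpi2 and Plaur were at 0.00637, 0.21 and 0.26 for Smad7-KO in unstimulated cells, Plau and Tfpi2 at 0.0855 and 0.12 under TGF-β1, and the interaction of Tfpi and Tfpi2 was 0.0283 and -0.0856. The interaction of Tfpi2 was -0.0397 and -0.0633 with limma. Leaving out 1 library at a time, Plau ranged from -0.0478 to 0.12 and Tfpi from -0.0612 to 0.0308 for TGF-β1 in control. For Smad7-KO in unstimulated cells Plau ranged from -0.168 to 0.00556, Tfpi2 from -0.30 to 0.26 and Plaur from -0.20 to 0.19, and Plau under TGF-β1 from -0.0683 to 0.00726. The interaction of Plau ranged from -0.0247 to 0.13 and that of Tfpi2 from -0.33 to 0.23. The cause was not tested.

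Over all genes, for TGF-β1 in control calls were 1268, and 391 with edgeR on the libraries of the comparison, 2204 with the length trend removed and 825 to 3449 without 1 library. For TGF-β1 in Smad7-KO cells they were 1550, against 3413 and 3792 with DESeq2 and edgeR on the libraries of the comparison, 2468 with the length trend removed and 985 to 2535 without 1 library. For Smad7-KO in unstimulated cells they were 3907, against 2271 and 660 on the libraries of the comparison and 1535 to 7979 without 1 library. The highest counts for TGF-β1 in control and Smad7-KO in unstimulated cells, 3449 and 7979, came without unstimulated control library 3. Without library 2 of that condition they were 1690 and 3013. For Smad7-KO under TGF-β1 calls were 1962, against 4605 and 4453, 3514 with the length trend removed and 883 to 4465 without 1 library. The interaction called 3, against 14 with DESeq2, 8 with the length trend removed, 2 without the filter and 0 with limma. With the length trend removed the share of higher calls went from 60.2% to 49.2% for TGF-β1 in control and from 44.1% to 55.7% for Smad7-KO under TGF-β1, and with limma the latter was 33.2% and 31.6%. Of the 29 other pathway genes 1, 2, 9 and 8 passed in the 4 comparisons in the order above, against 1, 7, 3 and 14 with edgeR on the libraries of the comparison. DESeq2 on these libraries gave 7 and 14 in the second and the last, removal of the length trend gave 3, 4 and 14 in the first, second and last, and limma gave 1 in the second and 5 (pseudocount 0.1) in the last.

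With the replicate number as a block, 2, 3, 5, 3 and 0 members passed in the 5 tests, and the block changed no call of a member. Calls over all genes were 1107, 1323, 3222, 1625 and 0 with the block. No label says that a number marks a shared animal or day. The correlation of deviations of same-numbered libraries was 0.0593, 0.524 and 0.0124 for TGF-β1 in control, for numbers 1, 2 and 3. It was between -0.205 and 0.0835 in the other comparisons. The control libraries numbered 2 thus deviated from their conditions in part alike, and the cause was not tested.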
